A study of Mus musculus with 2 samples.

Results

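The Iroquois genes of the mouse, Irx1 to Irx6, were followed in maps of open chromatin from newborn lung. They were taken by name from the GENCODE gene models, 6 of 21911 protein-coding genes, and lie in 2 clusters of 3. Irx1, Irx2 and Irx4 lie on chromosome 13, and Irx3, Irx5 and Irx6 on chromosome 8. The chromatin examined was that within 500 bp of any transcription start site (TSS) of these genes, and each cluster with 500 kb on either side.

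DNase-seq was made from lung of mice of the strain labelled B6NCrl, 0 days after birth, with no treatment given and sex not collected. The enzyme DNase I digests chromatin most readily at stretches free of nucleosomes, and dense cutting thus marks regulatory DNA such as promoters and enhancers. There was 1 group of 2 libraries, numbered here as the labels number the replicates. The labels list a biosample for each but a common donor entry, and whether these are different animals was not stated, so that the spread between them may be partly technical. With no other tissue, age or genotype, values were compared between the replicates, among the 6 genes and with all other genes, and no p-value was computed.

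Iroquois genes encode transcription factors with a DNA-binding homeodomain of the TALE class, which has an extended loop between helices. Members of this class often act with partners of the PBX and MEIS families. Mammals carry paralogous clusters in which the genes are spaced by long stretches poor in other genes and rich in conserved noncoding DNA. In the embryonic lung, Irx1, Irx2, Irx3 and Irx5 are known to be expressed during branching of the airways. Irx4 is best known as a gene of the heart ventricle, Irx3 and Irx5 act in heart conduction and retina, and Irx6 acts in retinal bipolar cells.

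The peak lists used held 276480 peaks in replicate 1 and 188498 in replicate 2. Of the former 59.5%, and of the latter 87.6%, overlapped a peak of the other list by at least 1 bp. Merged, the lists gave 290376 sites, of which 161051 were shared, 107276 were found in replicate 1 only and 22049 in replicate 2 only. Each peak carried a whole-number score given by the authors, with a median of 50 in replicate 1 and 43 in replicate 2 and a highest value of 150 and 148. What the score measures and the sequencing depth are not given in the sources used here, so that scores were read as ranks within a list. A shared site within 500 bp of a TSS was found for 6 of 6 markers of lung epithelium, 4 of 4 of lung mesenchyme, 3 of 3 of endothelium and 3 of 3 of blood. The same held for 4 of 7 markers of heart muscle, 2 of 3 of neurons, 2 of 3 of thyroid, 1 of 2 of liver and 0 of 3 of skeletal muscle. Over all protein-coding genes, 68.5% had such a site, and the counts of the latter 5 lists were not above that share. In whole lung, fewer cells with an open site and a less open site in each cell cannot be told apart.

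5 of the 6 Iroquois genes had a shared site within 500 bp of a TSS, and Irx4 had no peak there in either replicate. This was read against the 68.5% of all protein-coding genes. Promoters rich in CpG dinucleotides are commonly open in many tissues, and all 6 Iroquois promoters had more CpGs than the median gene. In the 500 bp on either side of the start of the gene model, Irx2 had 124 CpGs, Irx1 111, Irx4 89, Irx5 83, Irx6 64 and Irx3 57, against a median of 41 over all genes. Irx3 and Irx6 had more CpGs than 63.5% and 70.2% of genes. Among the 7996 genes with at least the 57 CpGs of Irx3, the lowest member, 96.3% had a shared site. The count of 5 of 6 was therefore no higher than the background of these genes. Hotspots, the wider enriched stretches called by the authors, were shared at the promoters of 5 of 6 Iroquois genes and of 69.1% of all genes.

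**Figure D1:**
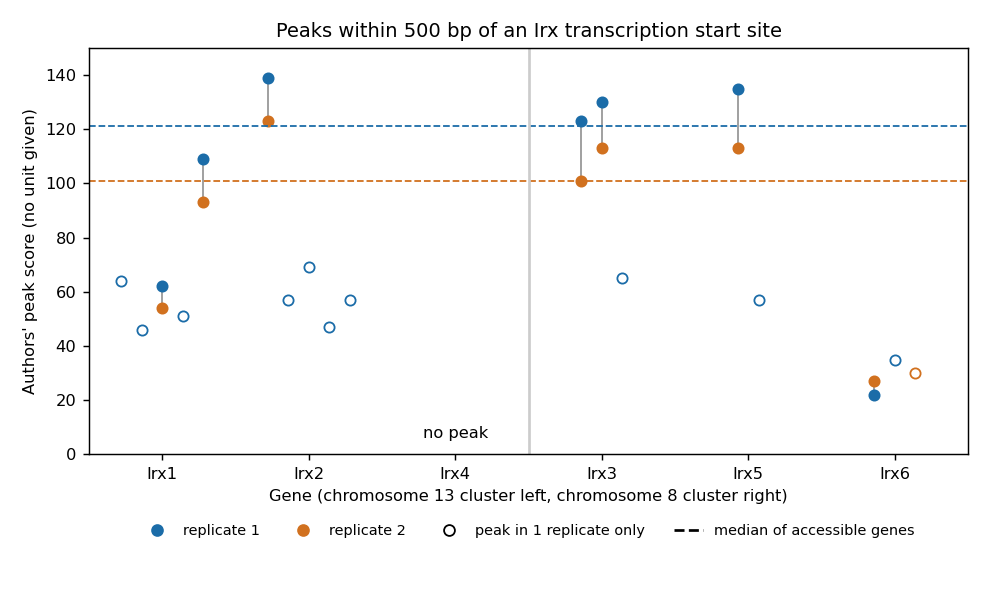
Authors' peak score (vertical axis, no unit given) of every peak within 500 bp of a TSS of each Iroquois gene (horizontal axis), with shared sites as filled points joined by a line, peaks of 1 replicate as open points, and dashed lines at the medians of 121 (replicate 1) and 101 (replicate 2) for the strongest promoter site over genes with a shared one. Irx2, Irx3 and Irx5 lie above both medians, Irx1 and Irx6 below both, and Irx4 has no peak.

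The promoter sites of 4 of these genes are printed to show where the chromatin was open, in mm10 (GRCm38) coordinates, on the strand of the gene, with CpGs in capitals. Only the stretch of each site outside annotated exons is given.
Irx2, chr13:72628596-72628698, plus strand: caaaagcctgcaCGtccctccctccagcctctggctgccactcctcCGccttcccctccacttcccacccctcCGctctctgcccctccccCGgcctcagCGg
Irx1, chr13:71963724-71963885, minus strand: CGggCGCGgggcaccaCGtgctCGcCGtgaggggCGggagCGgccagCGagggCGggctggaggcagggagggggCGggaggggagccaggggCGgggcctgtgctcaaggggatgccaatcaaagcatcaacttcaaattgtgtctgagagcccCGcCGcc
Irx3, chr8:91802068-91802125, minus strand: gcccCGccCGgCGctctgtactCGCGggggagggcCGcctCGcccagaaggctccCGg
Irx6, chr8:92673976-92674145, plus strand: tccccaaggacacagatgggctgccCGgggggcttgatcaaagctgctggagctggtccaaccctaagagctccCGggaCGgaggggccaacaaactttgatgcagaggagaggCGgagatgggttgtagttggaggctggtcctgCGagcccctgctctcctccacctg
The stretch of 162 bp at Irx1 held 14 CpGs, that of 103 bp at Irx2 held 5, that of 58 bp at Irx3 held 8, and that of 170 bp at Irx6 held 5. Their GC content was 72.2% at Irx1, 70.9% at Irx2, 81.0% at Irx3 and 62.4% at Irx6.

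Irx2 (ENSMUSG00000001504.10, chr13:72628820-72634198, plus strand) had the highest promoter score of the family. Its shared site lay at chr13:72628596-72628765, centred 139 bp before the 5′ end of the gene model, and scored 139 in replicate 1 and 123 in replicate 2. This was above 99.2% and 98.8% of all peaks in the respective list, and above the strongest promoter site of 85.7% and 83.8% of genes that had one. Replicate 1 alone had 4 further peaks within 500 bp of an Irx2 TSS, with scores of 47, 57, 57 and 69. The noncoding gene Gm20554 starts 256 bp from Irx2 on the other strand, and both genes share the strong site.

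Irx1 (ENSMUSG00000060969.9, chr13:71957921-71963723, minus strand) had a weaker promoter than Irx2 in both replicates. Its main site at chr13:71963696-71963885, centred 68 bp before the 5′ end, scored 109 and 93 in replicates 1 and 2, above 34.5% and 39.6% of accessible genes. A second shared site, at chr13:71960676-71960845 beside a TSS inside the gene model, scored 62 and 54. Replicate 1 alone had 3 further promoter peaks with scores of 46, 51 and 64. A shared site centred 838 bp before the start, outside the 500 bp window, scored 103 and 69.

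Irx4 (ENSMUSG00000021604.15, chr13:73260479-73269608, plus strand) stood apart from the other 5 genes. The peak nearest its 5′ end was found in replicate 1 only, scored 42 and lay 5072 bp inside the gene. The nearest shared site, at chr13:73268836-73269025, lay 8452 bp inside the gene and scored 48 and 46. No hotspot of either replicate came within 500 bp of an Irx4 TSS. Of the 2567 genes with at least as many promoter CpGs as Irx4, 44 (1.71%, Irx4 among them) had no promoter peak in either replicate. Of 7 heart muscle markers, 4 had a shared promoter site, not above the 68.5% of all protein-coding genes. These were Myh7 (106 in replicate 1 and 75 in replicate 2), Myl2 (66 and 46), Tnni3 (80 and 63) and Tnnt2 (67 and 37). Nppa, Myh6 and Myl7 had none. The highest of them, Myh7, ranked above 31.8% and 25.6% of accessible genes in replicates 1 and 2.

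Irx3 (ENSMUSG00000031734.13, chr8:91798525-91802067, minus strand) had 2 strong shared sites within its promoter windows. The site over the 5′ end, at chr8:91801956-91802125, scored 130 and 113, and that at chr8:91801476-91801625 scored 123 and 101. The stronger site ranked above 65.2% and 67.3% of accessible genes in replicates 1 and 2. A further peak was found in replicate 1 only, with a score of 65. The noncoding gene Irx3os, antisense to Irx3, had the same strongest site and 3 shared promoter sites in all. DNase-seq does not mark a strand, so that the sites cannot be given to either gene.

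Irx5 (ENSMUSG00000031737.11, chr8:92357625-92376286, plus strand) had a single shared promoter site, at chr8:92357636-92357785, centred 86 bp inside the gene model. Its scores of 135 and 113 were above those of 76.5% and 67.3% of accessible genes. A peak of replicate 1 only scored 57. The long noncoding RNA gene Crnde, on the other strand, had 2 shared promoter sites of its own. That at chr8:92356116-92356285, centred 1424 bp before the 5′ end of Irx5, scored 126 and 119, and that at chr8:92355896-92356045 scored 131 and 97. Irx5 and Crnde therefore had separate strong sites, unlike Irx2 and Gm20554.

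Irx6 (ENSMUSG00000031738.14, chr8:92674288-92680956, plus strand) had the weakest promoter site of the accessible members. It lay at chr8:92673976-92674145, 227 bp before the 5′ end, and scored 22 and 27, above only 0.306% and 1.93% of accessible genes. A further peak of replicate 1 only scored 35 and one of replicate 2 only scored 30. A stronger shared site stood just outside the 500 bp window, at chr8:92673576-92673745, with scores of 92 and 69 and its centre 627 bp before the start. Its 170 bp are printed because the low value of Irx6 depends on where the window ends, again with CpGs in capitals, of which there are 13.
Irx6 upstream, chr8:92673576-92673745, plus strand: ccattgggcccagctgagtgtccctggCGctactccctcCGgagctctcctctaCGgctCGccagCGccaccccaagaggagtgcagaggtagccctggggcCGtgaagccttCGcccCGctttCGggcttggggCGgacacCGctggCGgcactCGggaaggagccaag

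The order of the promoter scores was the same in both replicates from Irx2 down to Irx6, apart from a tie of Irx3 and Irx5 at 113 in replicate 2. Raw scores were generally higher in replicate 1, so that these genes were compared by rank within each library. Irx2 ranked above 85.7% and 83.8% of accessible genes in replicates 1 and 2. Irx5 ranked above 76.5% and 67.3%, and Irx3 above 65.2% and 67.3%. Irx2 was thus above Irx5 and Irx3 in both replicates, and Irx5 was above Irx3 in replicate 1 only. Whether these differences exceed the spread between replicates was not tested. Irx1 was below Irx2, Irx5 and Irx3 in each library, and Irx6 was far below all others in each. The place of Irx6 depends on the 500 bp window, which leaves out its stronger upstream site. Accessible genes in general had a median of 2 shared promoter sites. Irx1 and Irx3 had 2 each, and Irx2, Irx5 and Irx6 had 1 each, as did 40.8% of accessible genes.

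The hotspot of Irx2 spanned 1948 bp after merging both replicates and that of Irx3 spanned 1863 bp, and each was the widest of its cluster region. Those of Irx6 and Irx5 spanned 866 bp and 798 bp, and the former also spans the upstream site of Irx6 with scores of 92 and 69. All 4 stood at 100 on the −log10 q scale in both replicates, the ceiling of the files, which 39.5% and 36.2% of hotspots reached. The highest value below that ceiling was 6.0 in both replicates, so that a gap up to 100 does not measure the size of a difference. The main hotspot of Irx1, 1226 bp wide, stood at 100 in replicate 1 and 5.4 in replicate 2. A second one of 348 bp at the internal TSS stood at 3.52 and 1.5.

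The 12 other TALE homeobox genes all had a shared promoter site. The median score of their strongest sites was 125.5 in replicate 1 and 102 in replicate 2, and the lowest were 81 and 63. Irx2, Irx3 and Irx5 lay above both medians, and Irx1 lay between the lowest value and the median in both replicates. Irx6 lay below the lowest in both. Its upstream site with scores of 92 and 69, just outside the 500 bp window, was above these lowest values.

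Irx3 had the largest share of DNA in shared hotspots of the 6 genes. Over the gene model and 5 kb on either side there were 18 sites, 13 of them shared, and shared hotspots covered 47.5% of the DNA, more than at 99.9% of protein-coding genes. Irx2 had 14 sites, 4 of them shared, and 19.9% coverage, and Irx5 had 23 sites, 7 shared, and 14.4%. Irx1 had 11 sites, 4 shared, and 11.9%. Irx6 had 4 sites, 2 shared, and 5.2%, close to the median over all genes of 5.12% from 7 sites, 4 shared. Irx4 had 2 sites, 1 shared, and 1.6%, which was above 24.5% of genes. The stretch measured ran from 13543 bp at Irx3 to 28662 bp at Irx5, and a hotspot fills a larger share of a short stretch. Genes were not matched for length, and the part of length in these shares and ranks was not tested.

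**Figure D2:**
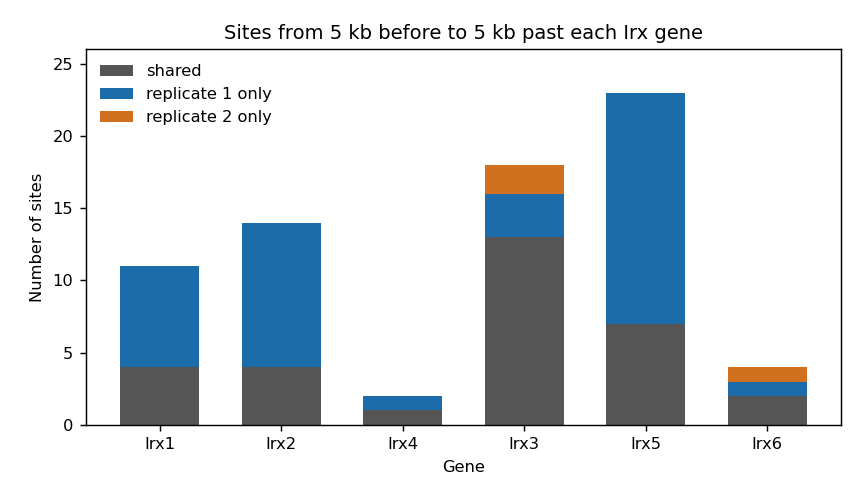
Number of sites (vertical axis) from 5 kb before to 5 kb past each Iroquois gene (horizontal axis), split into sites shared by both replicates and sites of 1 replicate. Irx3 has 13 shared sites of 18, while Irx5 has 7 of 23 and Irx2 4 of 14.

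Many of the sites around Irx1, Irx2 and Irx5 were found in replicate 1 only. Of the sites over each gene and its 5 kb flanks, 36.4% were shared at Irx1, 28.6% at Irx2, 30.4% at Irx5 and 72.2% at Irx3. Over 7821 genes with at least 10 sites the median was 57.1%, with 10th and 90th percentiles of 40.0% and 75%. The shares of Irx1, Irx2 and Irx5 were higher than those of 6.04%, 1.99% and 3.07% of these genes, and that of Irx3 was higher than 86.5%.

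Part of these sites lay within the gene models. In the gene body, 7 of 8 sites of Irx1 (scores 46 to 64), 4 of 4 of Irx2 (47 to 69) and 12 of 15 of Irx5 (26 to 66) were peaks of replicate 1 only. At Irx4 and Irx6, 1 of 2 gene-body sites each was of replicate 1 only. At Irx3, 7 of 8 gene-body sites were shared, with scores of 45 to 130 in replicate 1 and 27 to 113 in replicate 2, and the remaining site was of replicate 2 only. Over all 6 genes, 25 of 39 gene-body sites (64.1%) were of replicate 1 only and 2 of replicate 2 only. Among sites in gene bodies of all protein-coding genes, 37.2% were of replicate 1 only. Of those with 5 or more CpGs in 150 bp, 25.1% were of replicate 1 only. The median number of CpGs was 9 at the Iroquois gene-body sites and 8 at that last set. Base composition also went with sharing across the genome, where 40.6% of sites under 50% GC, 35.8% of those between 50% and 65% and 14.4% of those at 65% or more were of replicate 1 only. The median GC content of the gene-body sites was 54% at Irx1, 59.3% at Irx2, 54% at Irx5 and 65.3% at Irx3. Replicate 1 also had 1.47 times as many peaks as replicate 2. The part of base composition or of the longer list in this difference was not tested.

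The regions around the clusters differed in how densely they held distal sites, those centred more than 1000 bp from any TSS. The region of Irx1, Irx2 and Irx4 (chr13:71457921-73769608, 2.31 Mb) held 233 sites, of which 114 were shared, 104 were of replicate 1 only and 15 of replicate 2 only. Of the shared sites, 93 were distal, or 40.2 per Mb. The region of Irx3, Irx5 and Irx6 (chr8:91298525-93180956, 1.88 Mb) held 294 sites, of which 166 were shared, 103 of replicate 1 only and 25 of replicate 2 only. Here 139 shared sites were distal, or 73.8 per Mb. The genome as a whole held 44.3 per Mb, and its 1 Mb tiles had a median of 43, with 10th and 90th percentiles of 3 and 95.

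Among 16 regions around other genes of development, such as the Hox clusters and Gata4, the density ran from 19.6 to 114 per Mb with a median of 72.2. Of these, 2 lay below the Irx1-Irx2-Irx4 region and 8 below the Irx3-Irx5-Irx6 region. The 16 regions were 1.0 to 1.26 Mb long and thus mostly flank. The Iroquois regions, of 2.31 and 1.88 Mb, also hold long stretches between members, so that the regions differ in make-up. The difference between the clusters held with flanks of 250 kb (35.3 and 72.3 per Mb) and of 1000 kb (39.3 and 68.3 per Mb).

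**Figure D3:**
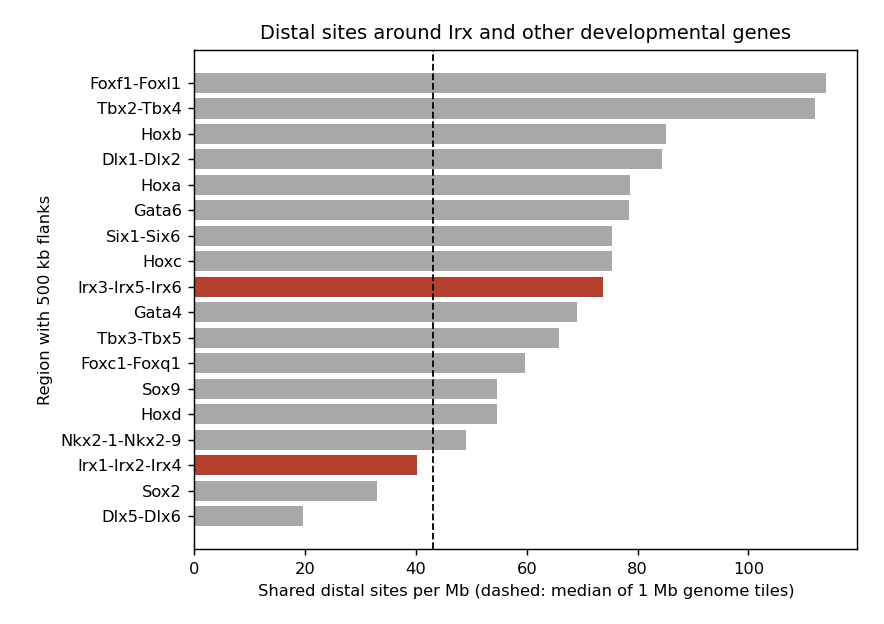
Shared distal sites per Mb (horizontal axis) in the 2 Iroquois cluster regions and 16 other developmental gene regions (vertical axis), each with 500 kb flanks, with a dashed line at the median of 43 over 1 Mb tiles of the genome. The Irx3-Irx5-Irx6 region stands at 73.8 per Mb, above the line, and the Irx1-Irx2-Irx4 region at 40.2, just below it.

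Median scores of the distal sites were close in the 2 regions. They were 63 and 45 in replicates 1 and 2 around Irx1-Irx2-Irx4, 60 and 42 around Irx3-Irx5-Irx6, and 63 and 43 over all 120862 shared distal sites of the genome. An Iroquois gene was the nearest protein-coding TSS of 69 of the 93 sites (74.2%) on chromosome 13 and of 77 of 139 (55.4%) on chromosome 8. Nearness does not show which gene a site serves.

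The overlap of the 2 peak lists was read against that of the whole genome. Of the 220 peaks of replicate 1 around Irx1-Irx2-Irx4, 51.8% (exact 95% binomial interval 45.0% to 58.6%) did so, and of the 278 around Irx3-Irx5-Irx6, 61.2% (55.1% to 66.9%) did so. Only the former interval lay below the genome-wide 59.5%. For replicate 2 the shares were 88.6% of 132 peaks (82.0% to 93.5%) and 87.0% of 193 (81.5% to 91.4%), and both intervals held the genome-wide value of 87.6%. The intervals cover counting error only.

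Within the chromosome 13 cluster, the stretch between Irx2 and Irx4 was the sparsest. Its 626 kb held 19 shared distal sites, 30.3 per Mb, with median scores of 36 and 26. The 665 kb between Irx1 and Irx2 held 25 such sites, 37.6 per Mb, with medians of 71 and 49. The flank beside Irx1 held 23 (46.0 per Mb) and that beside Irx4 held 25 (50 per Mb). Irx4 thus adjoined both the weakest set of sites and, on its other side, a flank with medians of 71 and 53. Of the 10 strongest distal sites of the region, 5 had Lpcat1, in that flank, as their nearest protein-coding TSS.

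**Figure D4:**
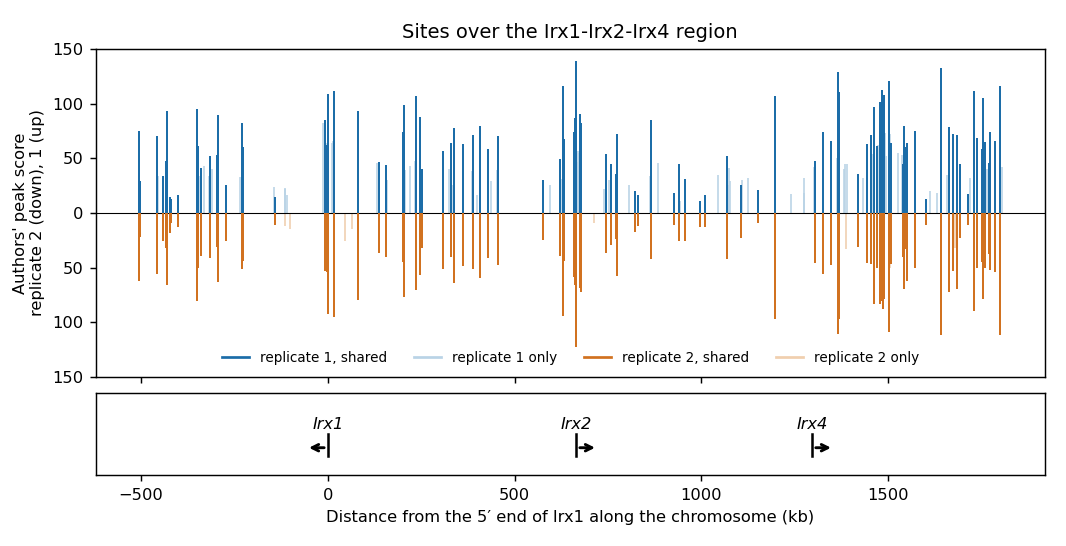
Peak scores (vertical axis, replicate 1 upward and replicate 2 downward) against distance along the Irx1-Irx2-Irx4 region (horizontal axis, kb), with shared sites in dark and peaks of 1 replicate in light colour, and arrows at the genes. Distal shared sites between Irx2 and Irx4 are low, with medians of 36 and 26, against 71 and 49 between Irx1 and Irx2.

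The 3 strongest distal sites of this region by mean rank over both libraries lay at differing distances from its genes. The site with scores of 116 and 94 lay 34929 bp before Irx2, that with 112 and 95 lay 16728 bp before Irx1, and that with 107 and 97 lay 99968 bp before Irx4. They are printed on the plus strand as candidate elements for follow-up, with matches to the 9 motifs described further on in capitals.
Irx2 side, chr13:72593816-72593965, plus strand: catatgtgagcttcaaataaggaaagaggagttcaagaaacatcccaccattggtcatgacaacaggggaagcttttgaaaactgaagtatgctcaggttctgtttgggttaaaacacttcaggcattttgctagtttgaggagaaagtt
Irx1 side, chr13:71980356-71980545, plus strand: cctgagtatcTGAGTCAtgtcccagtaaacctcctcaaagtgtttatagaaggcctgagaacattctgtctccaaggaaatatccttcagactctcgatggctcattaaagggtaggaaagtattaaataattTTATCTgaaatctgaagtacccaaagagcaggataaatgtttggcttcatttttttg
Irx4 side, chr13:73160436-73160585, plus strand: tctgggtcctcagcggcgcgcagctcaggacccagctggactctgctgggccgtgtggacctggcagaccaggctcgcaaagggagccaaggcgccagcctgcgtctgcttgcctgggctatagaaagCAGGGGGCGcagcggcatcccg
The sequence before Irx1 held a match to the GATA motif in its central 150 bp and one to AP-1 within its 190 bp, and that before Irx4 a match to the CTCF core. The sequence before Irx2 held none. GC content was 40.0%, 37.9% and 68.7% in the order printed.

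In the chromosome 8 cluster, the stretch between Irx3 and Irx5 was the richest. Its 556 kb held 45 shared distal sites, 81.0 per Mb, with median scores of 60 and 41. The 298 kb between Irx5 and Irx6 held 19, 63.8 per Mb, with medians of 48 and 31. Each flank held 36, or 72.0 per Mb. In both clusters, then, of the stretches between members, the one next to Irx4 or Irx6, weakest within the 500 bp window, had the lower density and median scores. The same stretch also adjoined the highest promoter score of its cluster, that of Irx2 or of Irx5, which was tied with Irx3 in replicate 2. A link between promoter scores and these stretches was not tested.

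**Figure D5:**
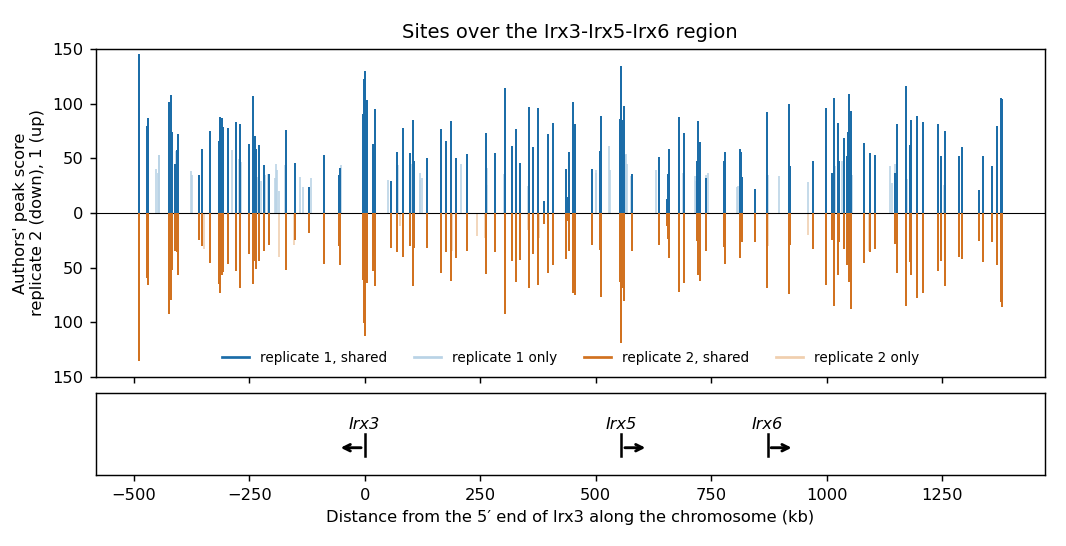
Peak scores (vertical axis, replicate 1 upward and replicate 2 downward) against distance along the Irx3-Irx5-Irx6 region (horizontal axis, kb), with shared sites in dark and peaks of 1 replicate in light colour and the genes marked. Shared sites are spread over the whole region, with 45 distal ones between Irx3 and Irx5 and 19 between Irx5 and Irx6.

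Of the 3 strongest distal sites here, 1 lay between the Iroquois genes and 2 lay inside neighbours. The site between Irx3 and Irx5 scored 114 and 93, 252894 bp before Irx5. A site with scores of 116 and 85 lay inside Slc6a2, the gene of the noradrenaline transporter, and a site with 102 and 93 lay inside Fto, 423096 bp from the 5′ end of Irx3. None of the 3 held a match to the 9 motifs, so that their sequences carry no capitals.
Irx5 side, chr8:92104636-92104825, plus strand: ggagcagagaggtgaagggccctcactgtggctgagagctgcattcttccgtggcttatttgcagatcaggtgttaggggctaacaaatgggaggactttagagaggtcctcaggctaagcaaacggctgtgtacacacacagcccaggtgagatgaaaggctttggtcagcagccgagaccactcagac
In Slc6a2, chr8:92973176-92973345, plus strand: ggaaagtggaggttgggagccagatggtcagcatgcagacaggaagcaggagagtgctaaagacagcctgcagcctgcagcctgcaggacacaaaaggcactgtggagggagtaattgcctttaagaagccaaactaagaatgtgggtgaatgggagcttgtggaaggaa
In Fto, chr8:91378896-91379045, plus strand: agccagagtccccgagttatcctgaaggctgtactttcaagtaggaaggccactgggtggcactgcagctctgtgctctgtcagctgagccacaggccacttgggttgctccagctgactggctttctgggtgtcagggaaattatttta
Fto, which encodes an RNA demethylase, is known for introns that hold long-range elements of Irx3. In newborn lung its gene body held 68 sites, of which 33 were shared and 29 shared and distal, with scores of up to 108 in replicate 1 and 93 in replicate 2. Only 1 of the distal sites had an Iroquois gene as its nearest protein-coding TSS, which counts by distance and does not follow contacts.

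Short consensus motifs were counted on both strands in the 150 bp around each shared distal site, as descriptions of sequence and not as binding sites. The Iroquois palindrome ACANNTGT was found in 5 of 93 sites (5.38%) around Irx1-Irx2-Irx4 and 9 of 139 (6.47%) around Irx3-Irx5-Irx6, against 6.23% of all shared distal sites. The NKX2 motif CTCAAG, which the lung regulator NKX2-1 can bind, was found in 19 sites (20.4%) and 21 sites (15.1%), against 12.2%. The exact 95% binomial interval was 12.8% to 30.1% around Irx1-Irx2-Irx4 and 9.6% to 22.2% around Irx3-Irx5-Irx6. Of the 18 shares compared, that of NKX2 around Irx1-Irx2-Irx4 was the only 1 whose interval left out the share of all sites. Neighbouring sites are not independent and no adjustment was made for the number of motifs, so that these intervals may be too narrow.

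The shares of the other 7 motifs are given for Irx1-Irx2-Irx4, then Irx3-Irx5-Irx6, then all shared distal sites. AP-1 (TGANTCA) was at 9.68% and 10.8% against 10.3%, TEAD (GGAATG) at 14% and 11.5% against 12.9%, and the CTCF core (CAGNNGGCG, CAGNNGGCA, TAGNNGGCG or TAGNNGGCA) at 12.9% and 12.2% against 14.5%. FOX (TNTTTAC) was at 6.45% and 7.91% against 9.75%, and C/EBP (TTGCNNAA) at 9.68% and 9.35% against 12.1%. The motif of GATA factors, AGATAA, was at 7.53% and 5.04% against 7.14%, and ETS (CCGGAAG) at 2.15% and 0.719% against 1.4%. Median GC content was 50% in both regions and 48.7% over all shared distal sites. None of the 9 motifs contains another.

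The 9 neighbouring protein-coding genes of the chromosome 13 region all had a shared promoter site. Ndufs6 and Mrpl36, of mitochondrial respiration and translation, shared a site with scores of 129 and 111. Lpcat1, which remodels the phospholipids of surfactant, scored 121 and 109, Clptm1l 133 and 112, and the potassium-chloride cotransporter gene Slc12a7 116 and 112. Slc6a19, a neutral amino acid transporter gene, scored 112 and 90, Tert, of the telomerase, 79 and 72, and Slc6a3, the dopamine transporter gene, 75 and 50. These sites of Slc12a7 and Slc6a19 lay beside a TSS inside the gene model. Beside the 5′ end of Slc12a7, a shared site scored 46 and 38. Slc6a18 was lowest with 17 and 11. Irx4 was thus the only protein-coding gene of its region, among 12, with no shared promoter site.

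Beside the chromosome 8 cluster, 5 of 10 neighbours had a shared promoter site. Rpgrip1l, of the ciliary transition zone, and Fto shared a site with scores of 146 and 136. Ces1d, a lung carboxylesterase gene, scored 117 and 93, Lpcat2, a lysophospholipid acyltransferase gene, 93 and 88, and Mmp2, the gelatinase A gene, 82 and 57. The 5′ end of Ces1d, 523550 bp from that of Irx6, and its promoter site lay past the end of the region. Ces1d was counted because another TSS of it lay inside. Capns2, Slc6a2, Ces1a, Ces1b and Ces1c had no shared promoter site. The carboxylesterase genes are close copies of one another, so that their values may depend on how reads were placed between them.

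Of the noncoding genes between the outer members of each cluster, 6 of 23 had a shared promoter site, 2 of 10 on chromosome 13 and 4 of 13 on chromosome 8, against 15.3% of all genes not annotated as protein-coding, pseudogenes included. Beside Gm20554, Irx3os and Crnde, described above, these were Gm47836 with scores of 80 and 60, Gm28516 with 54 and 35, and Gm45332 with 97 and 69. The 3 with the highest scores, Gm20554, Irx3os and Crnde, were those that start beside an Iroquois promoter. For Gm20554 and Irx3os, the strongest site is the promoter site of Irx2 or Irx3 itself. Their scores are thus no separate result, and both genes are among the 6 counted.

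At shared sites, scores were generally higher in replicate 1 than in replicate 2. The median log2 ratio of replicate 1 to replicate 2 was 0.36 around Irx1-Irx2-Irx4 and 0.47 around Irx3-Irx5-Irx6, against 0.445 over all shared sites. The promoter site of Irx6 was the exception among the 7 shared Iroquois promoter sites, with the higher score in replicate 2.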

How the data were processed

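DNase-seq peaks and hotspots had been called by the authors on each library against mm10, per the labels; the sources used here do not name the aligner and caller. The deposited peak score is a whole number of unstated meaning, and the deposited hotspots carry, in the column so defined by the format, a −log10 q-value with a ceiling of 100. Whether replicates 1 and 2 are different animals was not stated. Depth is not given either, so that nothing was scaled by it.

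Of 276892 and 188726 deposited peaks, those outside the 21 assembled chromosomes and exact duplicates (26 and 23) were removed. This left 276480 and 188498 peaks, and 0 intervals ended past a chromosome end of GRCm38 on these 21 chromosomes. Peaks of both replicates that overlapped by at least 1 bp were merged into sites, and a site with peaks of both is called shared. A promoter site had any part within 500 bp of a GENCODE TSS of the gene, and a distal site was centred more than 1000 bp from any TSS. Hotspots were treated in the same way. Exact 95% binomial intervals were computed for the overlap of peaks per cluster region and for the motif shares, and other shares carry none. No test between groups was possible with 1 group, and the merging was tested on simulated data.

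The members and lists were chosen with earlier results of these data known. Genes named were all 6 Iroquois genes, the protein-coding genes with a TSS in a cluster region, and the noncoding genes with a shared promoter site among those between the outer members. The rule also named the 3 other TALE genes of highest mean rank, which are not reported here. Heart markers were named with their values because Irx4 is a heart gene, a choice made after their values were seen. A planned comparison of the protein sequences was not made. Alternatives covered the overlap, the score, the promoter window, hotspots, gene models, flanks and each replicate alone. Python 3.11.15, numpy 2.4.6, pandas 2.3.3 and scipy 1.17.1 were used.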

Additional observations from a re-analysis of the deposited data

How the results depend on the processing

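The number of Iroquois genes with a shared promoter site stayed at 5 in each alternative except that of peaks above the median score, where it was 4 and Irx6 was left out, and the count of shared promoter hotspots stayed at 5. Of 68 alternative values, 56 stayed within the limits set for them. With a promoter window of 1000 bp the Irx3, Irx5 and Irx6 promoters held 7 shared sites in place of 4. With peaks above the median score alone, shared distal sites numbered 49 around Irx1-Irx2-Irx4 and 64 around Irx3-Irx5-Irx6. The shared percentage was then 61.7% for replicate 1 and 95.7% for replicate 2 around the former, and 96.4% for replicate 2 around the latter. Hotspots in place of peaks gave 93.7% for replicate 2 around Irx1-Irx2-Irx4, and an overlap of 75 bp gave 79.8% for replicate 2 around Irx3-Irx5-Irx6. Leaving out a replicate, so that every peak of the other counted, gave 3 to 10 promoter sites and 105 to 179 distal sites for Irx1-Irx2-Irx4, and 5 to 7 and 160 to 233 for Irx3-Irx5-Irx6, with the higher value without replicate 2. The alternatives that use fewer peaks or 1 list change the counts by construction; for the others the cause was not tested. No paired analysis was possible because the series holds 1 group. Depth is not given in the sources used here, so that a site missing from replicate 2 may have been below detection.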
